A study of Homo sapiens with 18 samples.

Results

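Expression after knockdown of ANKRD35 was compared with its own control in cells labelled 786-O, the name of an established line from a clear cell renal carcinoma. The table of this comparison lists 58735 genes, and 11890 of them reached 1 FPKM in at least 3 of its 6 libraries. FPKM counts sequenced fragments relative to a gene's length and to the size of its library. The genes past that minimum are described here. The whole series holds 18 libraries in 6 groups, with RBCK1 and MITD1 knocked down in the others, and its title places these genes and ANXA1 on an axis linked to the response to sunitinib. The control group is labelled sicontrol_for_siANKRD35 and the knockdown group siANKRD35, with 3 RNA-seq libraries each. The labels name no drug, no time after knockdown and no further allele in either group. The columns of the knockdown carry the word shRNA where the sample titles say si, so the kind of knockdown reagent is uncertain, and its sequence is not given in the sources used here. Both groups are labelled as 1 cell line. Whether replicate libraries were grown as separate cultures is not stated. The p-values below thus rest on library-to-library spread alone, and part or all of it may be technical.

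ANKRD35 encodes a protein with ankyrin repeats, short helical units that bind other proteins. RBCK1 is a subunit of the complex that builds linear ubiquitin chains, MITD1 binds the ESCRT-III machinery that cuts the last membrane bridge between dividing cells, and ANXA1 is a calcium-dependent membrane-binding protein that dampens inflammation. Clear cell renal carcinoma is known for loss of VHL, the ubiquitin ligase subunit that targets hypoxia-inducible factors for breakdown.

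Each library held 17502646 to 19034974 reads assigned to genes, recovered from the FPKM values and the listed gene lengths. The library sizes implied by the FPKM were 1.022 to 1.027 times these reads in the controls and 0.958 to 0.973 times after knockdown. This scaling raises the FPKM of every gene after knockdown relative to the controls. The control libraries correlated at r = 0.992 to 0.993 across genes on the log2(FPKM + 1) scale. siANKRD35 replicate 2 stood apart: it correlated at 0.97 with replicate 1 and 0.98 with replicate 3, which correlated at 0.99 with each other. Counts over gene lists are therefore set beside those found without that library, and beside the range found without 1 of the other 5 libraries. In the lists given this way, calls were fewest without siANKRD35 replicate 3 or without a control library. The labelled cell line was checked against its markers and against the libraries of the other tables, all labelled 786-O. PAX8, a transcription factor of kidney epithelium, measured 45.9 ± 2.52 FPKM in the controls (SD, n = 3) and EPAS1, which encodes HIF-2 alpha, 38.1 ± 1.46 FPKM, whereas CA9 was at 0 in every control library and at most 0.0348 FPKM after knockdown. CA9 was low in the other tables too, with group means from 0.0864 FPKM in shcontrol to 0.416 FPKM in siMITD1. VEGFA, a main target of HIF, measured 4.0 FPKM in these controls, against 26.6 in shcontrol and 39.6 in sicontrol_for_siMITD1. Of 29580 symbols compared, 18 were at 0 in all 6 libraries here and at 2 FPKM or more in each of the other 12, and 23 showed the reverse. Among the first were MMP2, CDH6 and CAVIN3, and also MLLT3, FOCAD, KLHL9 and MTAP, which lie along chromosome 9 from 20341665 to 21937651 (GRCh38). Among the second were GAL, RBP7, FOXL2, GATA5 and CDKN2B, the last on chromosome 9 from 22002903 to 22009363, just beyond MTAP. The controls correlated at r = 0.912 to 0.931 with the controls of the other tables, which correlated at 0.954 to 0.955 with each other. Both groups of the comparison share these patterns, and a different subline, a different line and a different table cannot be told apart from these files. The summed level of 12 fibroblast markers was 0.995 to 1.13 FPKM in the controls and 0.409 to 0.559 FPKM after knockdown, and that of 12 blood cell markers at most 2.43 FPKM. Of 10 endothelial markers, EGFL7 alone passed 1 FPKM, and the summed level of the list was 20.9 to 27.6 FPKM in the controls and 27.9 to 52.3 FPKM after knockdown. Summed hepatocyte markers stood at 13 to 14.4 FPKM against 8.34 to 10.7 FPKM, keratinocyte and squamous markers at 7.0 to 8.68 against 8.25 to 13.6 FPKM, each with 1 of 10 members at 1 FPKM or more. Markers of embryonic kidney lines stood at 49.7 to 51.8 against 62.2 to 69.4 FPKM, with 3 of 10 members at 1 FPKM or more. The part of such differences in the results was not tested.

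ANKRD35 itself was at or near 0 in the libraries labelled siANKRD35. It lies on chromosome 1, 145866560 to 145885866 (GRCh38, minus strand), and measured 753, 687 and 742 FPKM in the controls and 0, 0 and 0.0332 FPKM in the siANKRD35 libraries. In reads this was 45547, 45164 and 44938 against 0, 0 and 2. The groups did not overlap, and the fall was the largest of any gene tested (log2 change -9.49 on the log2(FPKM + 1) scale, limma adjusted p = 3.12e-09). In the controls ANKRD35 ranked 37 of all genes tested by mean FPKM. In the libraries of the other tables, controls and knockdowns alike, ANKRD35 was between 0 and 0.0392 FPKM. Knockdown of a gene these cells normally express, loss of the gene, and a control that carries extra ANKRD35 cannot be told apart from these files, so the contrast is described by its labels. An exact permutation test of 3 libraries against 3 gives p = 0.1 for ANKRD35, the smallest this design allows. For the partial changes of other genes below, these bulk libraries cannot tell a change in the cells with a transcript from a change per cell.

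**Figure D1:**
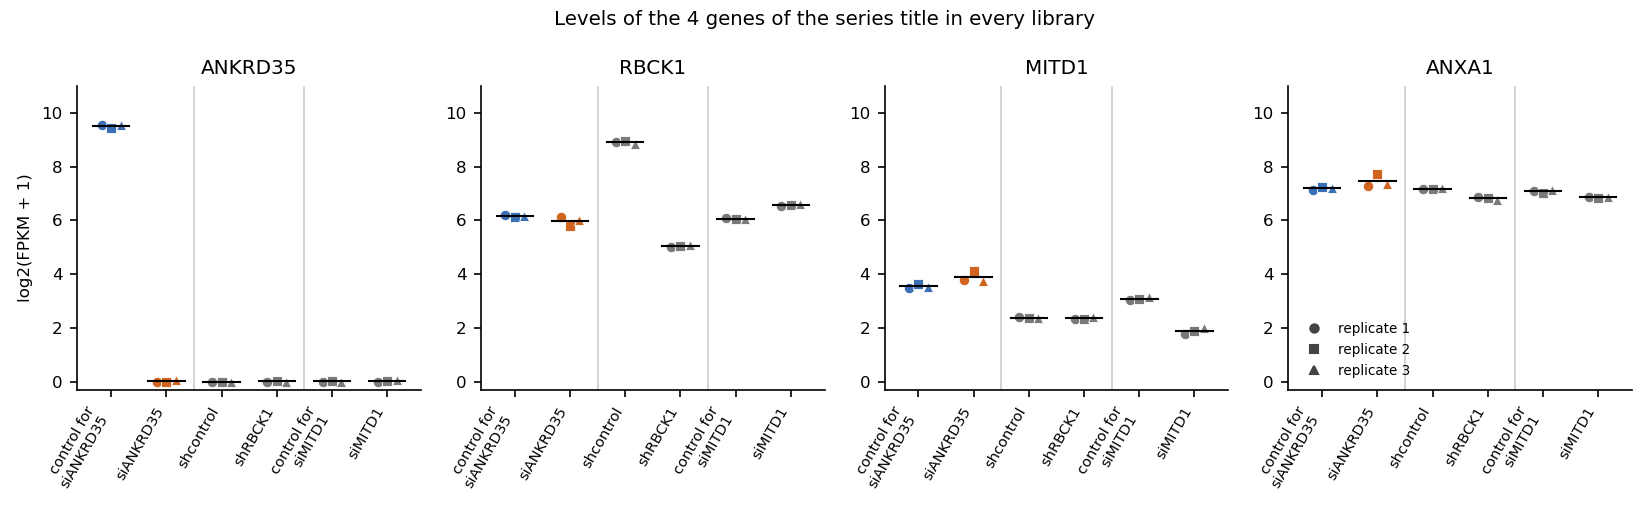
Levels of ANKRD35, RBCK1, MITD1 and ANXA1 in each library of the series, as log2(FPKM + 1), with the group mean as a line and a marker shape for each replicate number. ANKRD35 stands between 687 and 753 FPKM in its own control and near 0 in each of the other groups, while the other 3 genes differ far less between the ANKRD35 knockdown and its control.

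RBCK1, MITD1 and ANXA1 did not pass. RBCK1 measured 73.1, 68.2 and 70.9 FPKM in the controls and 68.4, 54.7 and 63.3 FPKM in the siANKRD35 libraries (log2 change -0.19, limma adjusted p = 0.156). MITD1 measured 10.3, 11.4 and 10.4 FPKM in the controls and 12.7, 16.3 and 12.4 FPKM in the siANKRD35 libraries (log2 change 0.33, limma adjusted p = 0.0618), and ANXA1 139, 149 and 146 FPKM in the controls and 156, 212 and 163 FPKM in the siANKRD35 libraries (log2 change 0.28, limma adjusted p = 0.116). For MITD1 and ANXA1 the groups did not overlap, with siANKRD35 replicate 2 the highest library for both, but the spread after knockdown was wide. In their own comparisons ANXA1 was lower after RBCK1 knockdown (log2 change -0.36, limma adjusted p = 0.000163) and after MITD1 knockdown (-0.23, adjusted p = 0.000217). These are separate fits with separate controls, and the difference between them and the ANKRD35 comparison was not tested.

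Of 24 annotated genes within 200 kb of ANKRD35, 10 were tested. TXNIP, which encodes an inhibitor of thioredoxin and of glucose uptake, lies 106569 bases away. It fell, with 216, 224 and 214 FPKM in the controls and 59.6, 68.1 and 62.3 FPKM in the siANKRD35 libraries (log2 change -1.77, SE 0.0739, limma adjusted p = 0.000105). The groups were far apart, and the change stood at -1.87 after the length correction described next. POLR3C, an RNA polymerase III subunit, also fell (log2 change -0.32, limma adjusted p = 0.0383), while POLR3GL (0.62) and RBM8A (0.44) rose. The nearest tested neighbour, PIAS3, did not pass (log2 change -0.14, limma adjusted p = 0.274).

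Change after knockdown followed gene length. Genes of 1000 to 2000 bases had a median log2 change of 0.36, with 43.3% of them called higher and 3.44% lower. Genes over 12000 bases had a median of -0.27, with 2.97% called higher and 47.2% lower. Between them the median fell in order, through 0.24 at 2000 to 3000 bases, 0.02 at 4000 to 6000 and -0.18 at 8000 to 12000. The 461 genes of up to 500 bases, which include pseudogenes and small noncoding RNAs, stood at 0.07. Across all genes tested, Spearman's rho of the change with gene length was -0.413, a description over genes that share the same 6 libraries. It was 0.0272 in the RBCK1 comparison and 0.0889 in the MITD1 comparison.

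The trend was also taken library by library. As the correlation of a library's deviation from the 6-library mean with gene length, it was 0.354, 0.393 and 0.37 in the controls and -0.428, -0.109 and -0.396 in the siANKRD35 libraries. That mean is shared by both groups, so a trend in either group alone gives the other the opposite sign. The values thus describe a difference between the groups, not which group carries the trend. The groups did not overlap, and the difference of their means was -0.684 (exact permutation test, two-sided p = 0.1, the smallest 3 against 3 allows). siANKRD35 replicate 2 had the weakest trend with length and the strongest with GC content, at rho = -0.578, where replicates 1 and 3 were at 0.404 and 0.193. The mean gene length weighted by reads was 5590 to 5603 bases in the controls and 5086 to 5235 bases after knockdown. The source of the trend was not tested, so gene lists are given as measured and after a length correction, and single genes also after it where it changed the call. In the correction, a smooth curve of a library's deviation on log2 gene length was subtracted. After it, rho of the change with length was -0.0179.

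**Figure D2:**
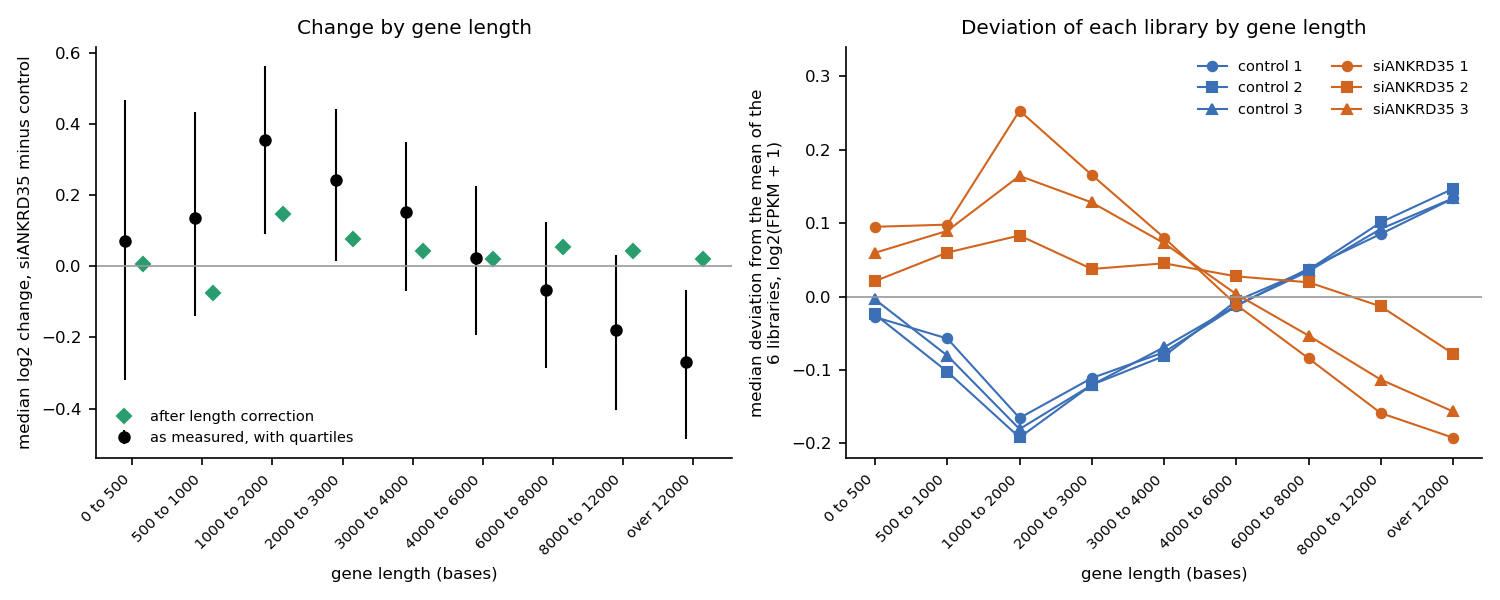
Left, the median log2 change of genes in bins of gene length, with quartiles, as measured (circles) and after the length correction (diamonds); right, the median deviation of each library from the mean of the 6 libraries in the same bins. As measured the medians run from 0.36 at 1000 to 2000 bases to -0.27 over 12000 bases. Relative to the shared mean, the control lines climb with length and the siANKRD35 lines descend, replicate 2 least.

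With an adjusted p under 0.05, 2305 genes were higher after knockdown (19.4% of those tested) and 2007 were lower (16.9%), or 36.3% in either direction. After the length correction 1983 were higher (16.7%) and 1480 lower (12.4%). Both ways of testing called the same 1475 genes higher (12.4%) and 1239 lower (10.4%). The groups did not overlap for 6203 genes (52.2%). Most changes were small: 158 called genes rose at least 2-fold in mean FPKM (1.33%) and 270 fell at least 2-fold (2.27%). Without siANKRD35 replicate 2 the calls, 55% of genes in either direction, grew to 3516 higher (29.6%) and 3020 lower (25.4%). Without siANKRD35 replicate 3 they dropped to 1499 and 1326, and without control replicate 1, 2 or 3 to 1211, 1167 or 1219 higher and 1113, 1100 or 1139 lower. On reads, limma-voom, which took the read sums as library sizes, turned the balance, with 1747 higher and 2724 lower. The median change over all genes was 0.03 as measured and -0.05 with limma-voom. The part of the library scaling in these counts was not tested. List counts below are to be read beside those of all genes in the same setting.

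The largest increases were drawn from genes called both as measured and after the length correction, with groups that do not overlap. They also had to average 5 FPKM or more in a group, and genes with clone names were left out. Chosen this way, the increases joined secreted enzymes, receptors and epithelial genes. SFN, which encodes the cell cycle inhibitor 14-3-3 sigma, measured 2.53, 2.44 and 3.03 FPKM in the controls and 43.2, 23.1 and 41.7 FPKM in the siANKRD35 libraries (log2 change 3.29, SE 0.23, limma adjusted p = 0.000541). The lowest knockdown library, replicate 2, was still several times above the highest control. MMP1, the interstitial collagenase, measured 7.26, 9.01 and 8.32 FPKM in the controls and 51, 65.5 and 51 FPKM in the siANKRD35 libraries (log2 change 2.62, SE 0.12, limma adjusted p = 0.000168). HMOX1, the heme oxygenase induced by oxidative stress, measured 181, 161 and 165 FPKM in the controls and 855, 479 and 758 FPKM in the siANKRD35 libraries (log2 change 2.0, SE 0.20, limma adjusted p = 0.00131), with replicate 2 again the lowest of the knockdown libraries. KNSTRN, a kinetochore adaptor of the mitotic spindle, had the smallest standard error of these increases, at 24.9, 24.5 and 24 FPKM in the controls and 93.1, 85.4 and 94.7 FPKM in the siANKRD35 libraries (log2 change 1.85, SE 0.070, limma adjusted p = 0.000105). CXCR4, the receptor for the chemokine CXCL12, measured 1.65, 1.77 and 2.22 FPKM in the controls and 9.7, 11.8 and 9.68 FPKM in the siANKRD35 libraries (log2 change 1.98, SE 0.11, limma adjusted p = 0.000311). PLIN2, the coat protein of lipid droplets, measured 17.5, 17.6 and 17.4 FPKM in the controls and 43.2, 53.9 and 45.9 FPKM in the siANKRD35 libraries (log2 change 1.39, SE 0.0929, limma adjusted p = 0.000512). That the groups did not overlap in these genes was set by the choice, and it held for 52.2% of all genes tested. The other protein-coding increases were IL13RA2, a decoy receptor for interleukin 13 (3.94 ± 0.518 to 16.2 ± 3.96 FPKM), SCEL, a protein of cornified envelopes (4.44 ± 0.307 to 16.8 ± 3.88 FPKM), KRTAP2-3, a keratin-associated protein (2.28 ± 0.707 to 9.0 ± 1.64 FPKM), HOXB13, a homeobox factor (4.17 ± 0.767 to 14.6 ± 3.34 FPKM), and RBP7, a retinol-binding protein (7.05 ± 1.03 to 20.0 ± 2.38 FPKM; mean ± SD, n = 3 in each group). Their log2 changes ran from 1.39 to 1.78, with limma adjusted p-values from 0.00093 to 0.00174. SNHG19, a long noncoding host transcript of small nucleolar RNAs, rose as well (log2 change 1.43).

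After ANKRD35 itself, the largest decreases chosen by the same rule joined immediate early factors, lipid enzymes and matrix proteins. RSAD2, an interferon response gene given below, fell by more than ATF3 but was under the FPKM minimum of that rule. EGR1, a zinc finger factor switched on within minutes by growth signals, measured 10.9, 10.6 and 10.3 FPKM in the controls and 1.32, 1.08 and 1.32 FPKM in the siANKRD35 libraries (log2 change -2.38, SE 0.0789, limma adjusted p = 6.34e-05). ATF3, a stress-induced factor, measured 252, 255 and 250.5 FPKM in the controls and 76.2, 63.9 and 71.3 FPKM in the siANKRD35 libraries (log2 change -1.83, SE 0.0809, limma adjusted p = 0.000134). OASL, an interferon-induced antiviral protein, measured 17.9, 18.6 and 19.4 FPKM in the controls and 4.79, 4.59 and 4.25 FPKM in the siANKRD35 libraries (log2 change -1.83, SE 0.0748, limma adjusted p = 0.000105). SCD, the desaturase that makes oleate, measured 25.9, 26.8 and 25.2 FPKM in the controls and 7.38, 6.82 and 6.83 FPKM in the siANKRD35 libraries (log2 change -1.75, SE 0.0699, limma adjusted p = 0.000105). FN1, fibronectin, measured 66.7, 68.3 and 67.5 FPKM in the controls and 21.3, 26.7 and 23.6 FPKM in the siANKRD35 libraries (log2 change -1.47, SE 0.0915, limma adjusted p = 0.000422). POLR2A, the catalytic subunit of RNA polymerase II, measured 25.9, 26.6 and 26.4 FPKM in the controls and 9.34, 9.99 and 10.0 FPKM in the siANKRD35 libraries (log2 change -1.34, SE 0.0666, limma adjusted p = 0.000213). The 3 knockdown libraries lay close together in each of these 6 genes, replicate 2 included, and far below the controls. COL7A1, the collagen of anchoring fibrils, went from 7.06 ± 0.168 to 1.71 ± 0.511 FPKM, FASN, fatty acid synthase, from 22.2 ± 1.33 to 7.61 ± 0.74 FPKM, HSPG2, perlecan, from 5.77 ± 0.26 to 1.66 ± 0.229 FPKM, and HMGCS1, the first committed enzyme of the mevalonate pathway, from 14.8 ± 0.347 to 5.28 ± 0.721 FPKM. Of these long genes, FN1 (17315 bases) went from -1.47 to -1.15 with the length correction, HSPG2 (18104 bases) from -1.35 to -1.04 and COL7A1 (11071 bases) from -1.59 to -1.33.

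**Figure D3:**
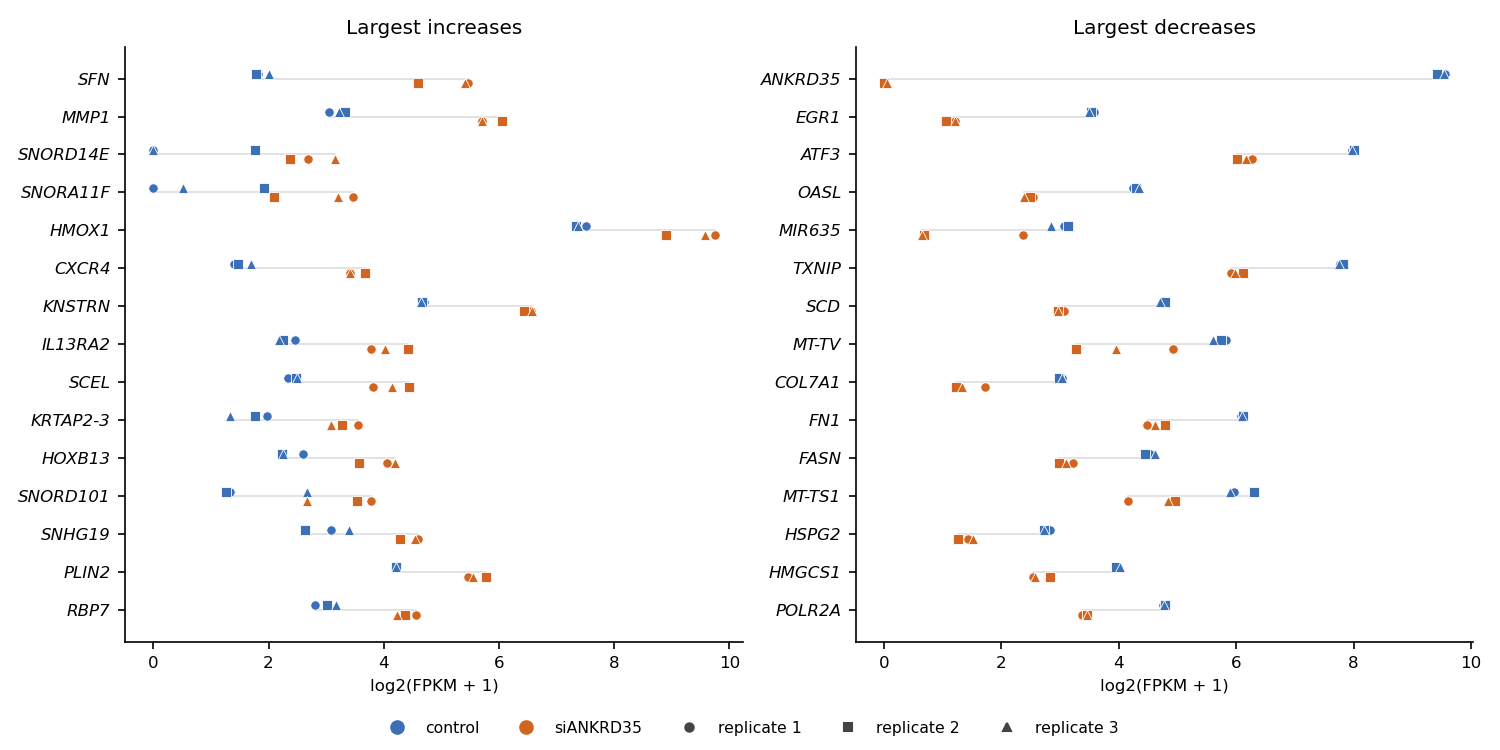
The 15 largest increases and the 15 largest decreases among genes called as measured and after the length correction that average 5 FPKM or more in a group. Each library is a point on the log2(FPKM + 1) scale (controls blue, siANKRD35 orange, marker shape by replicate number). Groups without overlap in FPKM were part of the choice, though for SNORD101 and SNORA11F the highest control and the lowest siANKRD35 library hold 7 reads each. SFN, MMP1, ANKRD35 and EGR1 show the widest gaps, and the short RNAs SNORD14E, SNORA11F, SNORD101, MIR635 and MT-TV show the widest scatter.

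Among these genes 6 are shorter than 200 bases and rest on few reads. SNORD14E, a small nucleolar RNA inside HSPA8, had 0, 4 and 0 reads in the controls and 8, 6 and 12 after knockdown, SNORA11F had 0, 7 and 1 against 22, 7 and 19, and SNORD101, inside RPS12, had 2, 2 and 7 against 16, 13 and 7. MIR635 had 13, 15 and 11 reads against 7, 1 and 1. Their hosts moved less: HSPA8 by 0.37, RPS12 by 0.54, and WIPI1, which holds MIR635, by -0.19 without passing as measured (after the length correction -0.30, limma adjusted p = 0.0324). The mitochondrial transfer RNAs MT-TV and MT-TS1 had 69, 71 and 59 reads against 35, 10 and 18, and 76, 105 and 73 against 20, 35 and 34. Of 19 mitochondrial transfer RNAs tested, 7 were lower and 1 higher, beside 16.9% and 19.4% of all genes tested. Fragments of these RNAs cannot be told from longer precursors or hosts in such libraries.

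Nuclear genes of the respiratory chain rose together, while the mitochondrial genome's own messenger RNAs did not. The chain passes electrons through complexes I to IV, and ATP synthase uses the resulting proton gradient; nearly all subunits are nuclear-encoded, and a few come from mitochondrial DNA. Of complex I, 35 subunits were tested, and 31 were higher and 0 lower. Their median log2 change was 0.53, beside 0.03 for all genes, of which 19.4% were higher and 16.9% lower. NDUFB6 measured 16.7, 17 and 16 FPKM in the controls and 33.2, 33.4 and 30.3 FPKM in the siANKRD35 libraries (log2 change 0.92, SE 0.0721, limma adjusted p = 0.000674), NDUFA1 14.6 ± 0.955 to 32.9 ± 8.46 FPKM and NDUFAB1 35.1 ± 1.46 to 67.8 ± 9.23 FPKM. NDUFB7 did not pass, at 80.3, 73.1 and 75.6 against 191, 84.1 and 155 FPKM (log2 change 0.82, limma adjusted p = 0.0534). Replicate 2 lay near the controls while replicates 1 and 3 lay far above them. All 4 subunits of complex II were higher, with SDHB at 37.8, 35.5 and 38.2 FPKM in the controls and 60.8, 61.1 and 62.1 FPKM in the siANKRD35 libraries (log2 change 0.71, SE 0.065, limma adjusted p = 0.00101), as were all 9 of complex III, with UQCR10 going from 22.3 ± 0.324 to 48.4 ± 9.84 FPKM. Of complex IV, 10 of 12 were higher, COX8A going from 70.6 ± 2.94 to 142 ± 49.3 FPKM. Of ATP synthase, 15 of 18 were higher, ATP5ME going from 9.79 ± 0.759 to 18.9 ± 1.85 FPKM; ATP5MD, at 102 ± 3.18 to 121 ± 63 FPKM, did not pass. After the length correction the counts were 28, 4, 6, 10 and 12 for complexes I to IV and ATP synthase, none was lower, and the medians were 0.52, 0.57, 0.46, 0.55 and 0.49. Leaving out any 1 library gave 21 to 32 higher subunits of complex I, 4 to 9 of complex III, 6 to 12 of complex IV and 13 to 16 of ATP synthase, the most without siANKRD35 replicate 2 and the fewest, depending on the complex, without 1 of the control replicates.

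Of the 13 mitochondrially encoded messenger RNAs, 0 were higher and 1 lower, beside 19.4% and 16.9% of all genes tested. Their median was -0.17. MT-ND5, a complex I subunit, fell, with 1072, 1154 and 1111 FPKM in the controls and 670.0, 955 and 769 FPKM in the siANKRD35 libraries (log2 change -0.49, SE 0.13, limma adjusted p = 0.0241). MT-CO1, a complex IV subunit, measured 9631, 9857 and 9675 against 7702, 10258 and 9156 FPKM (log2 change -0.11, limma adjusted p = 0.442). siANKRD35 replicate 1 was the lowest library for both. After the length correction 3 of these RNAs were lower, and without siANKRD35 replicate 2 7 were. After a correction for both length and GC content 9 were lower, after quantile normalization 5, and with limma-voom 4. Without siANKRD35 replicate 3 or any 1 control library none was. The share of reads from mitochondrial genes was 6.11% to 6.30% in the controls and 5.03%, 6.41% and 5.74% in siANKRD35 replicates 1, 2 and 3. The citric acid cycle, which feeds the chain, had 12 of 17 enzymes higher and 1 lower, among them IDH3B (36.2 ± 1.89 to 57.3 ± 7.93 FPKM), PDHB (6.44 ± 0.328 to 10.4 ± 0.531 FPKM), DLD (22.2 ± 0.61 to 32.7 ± 4.61 FPKM) and DLAT (12.6 ± 0.185 to 18.5 ± 2.09 FPKM). Citric acid cycle enzymes numbered 9 higher and 1 lower after the length correction, 13 and 1 without siANKRD35 replicate 2, and 6 to 11 and 0 to 1 without 1 of the others.

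**Figure D4:**
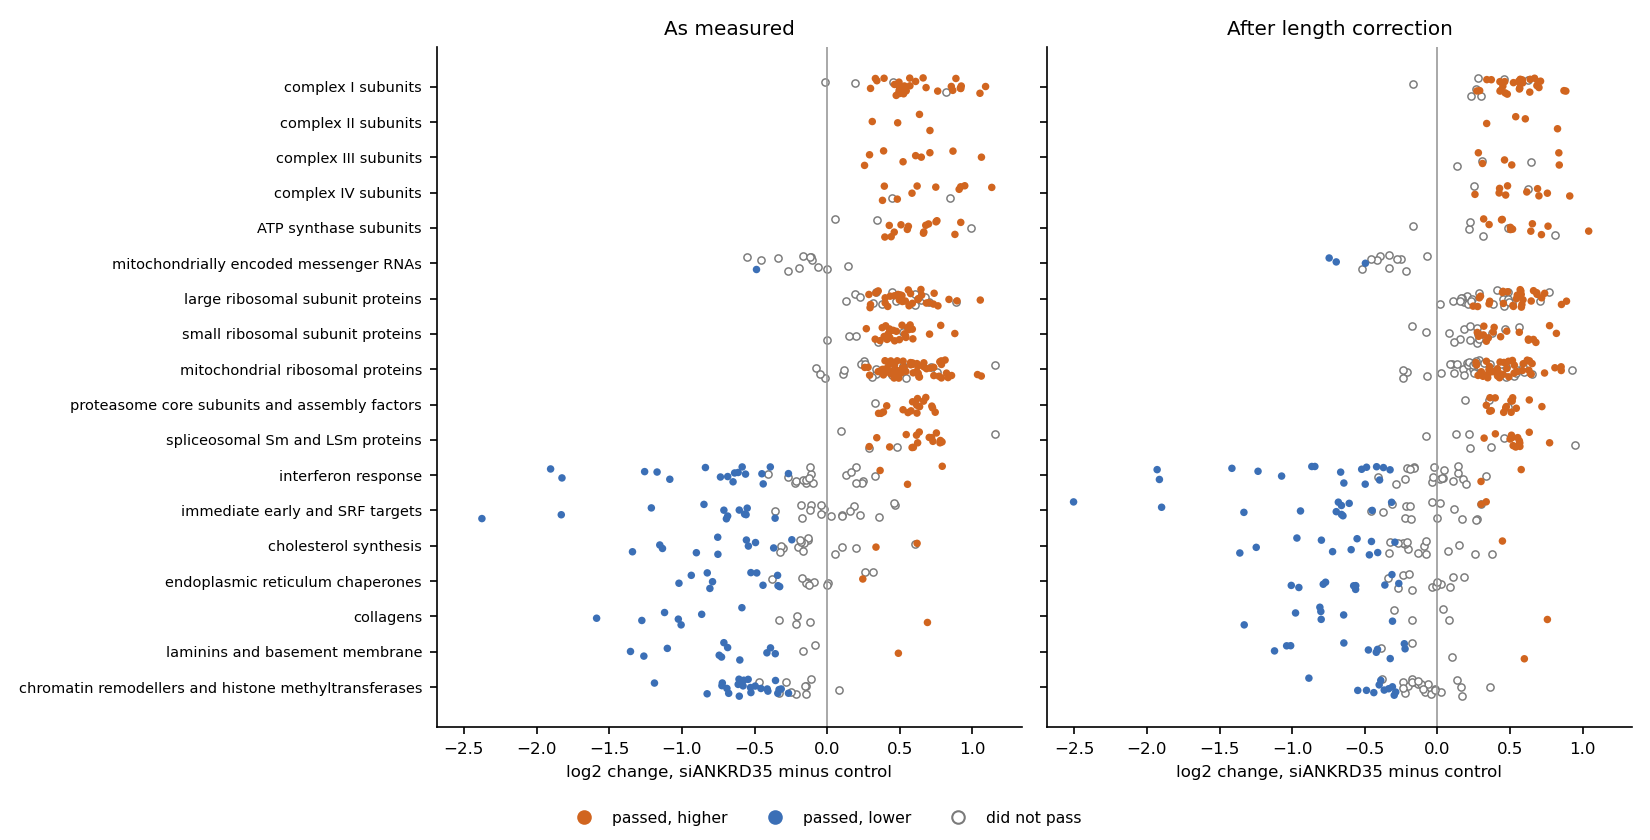
Log2 change of each tested member of 18 gene lists, as measured (left) and after the length correction (right), with filled points for members that passed the test. Members of complexes I to IV, ATP synthase, both ribosomes, the proteasome core and the Sm and LSm proteins lie mostly to the right of 0 in both panels; the mitochondrially encoded messenger RNAs, collagens, basement membrane and chromatin genes lie mostly to the left, the chromatin genes closer to 0 after the correction.

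Ribosomal protein genes rose as well, where 19.4% of all genes tested were higher and 16.9% lower. Of 49 genes of the large cytosolic subunit 33 were higher and none passed as lower (median log2 change 0.54), and of 33 of the small subunit 28 were higher and none lower (0.45). RPL24 measured 104, 104 and 102 FPKM in the controls and 220.2, 169.8 and 191 FPKM in the siANKRD35 libraries (log2 change 0.89, SE 0.10, limma adjusted p = 0.0017). RPL27 measured 295, 279 and 273 FPKM in the controls and 549, 447 and 525 FPKM in the siANKRD35 libraries (log2 change 0.84, SE 0.0931, limma adjusted p = 0.00168). RPS18 measured 564, 534 and 571 FPKM in the controls and 905, 812 and 799 FPKM in the siANKRD35 libraries (log2 change 0.59, SE 0.0758, limma adjusted p = 0.0023). The groups did not overlap in these 3 genes. RPLP0, among the most abundant, measured 902, 931 and 934 against 998, 1218 and 1032 FPKM and did not pass (log2 change 0.23, limma adjusted p = 0.09). The counts depend on the treatment of the values. They were 28 and 18 after the length correction, 13 and 8 after quantile normalization (medians 0.28 and 0.14), and 47 and 30 without siANKRD35 replicate 2. With any 1 library left out they ran from 22 and 15 upward. Many ribosomal protein genes have processed pseudogenes that can share reads with them. Mitochondrial ribosomal proteins, which translate the messenger RNAs of the mitochondrial genome, had 58 of 76 higher and 0 lower (median 0.50), 39 after the length correction and 34 to 71 with any 1 library left out. MRPL14 measured 63.7, 68.2 and 64.8 FPKM in the controls and 147, 134 and 126 FPKM in the siANKRD35 libraries (log2 change 1.03, SE 0.079, limma adjusted p = 0.000621).

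Translation factors moved in both directions. Of 33 initiation and elongation factors 15 were higher and 3 lower, beside 19.4% and 16.9% of all genes tested. Translation factors numbered 13 higher and 4 lower after the length correction and 18 and 8 without siANKRD35 replicate 2. Without 1 of the others they numbered 5 to 13 and 1 to 3. Quantile normalization turned the balance, to 3 and 8, as it did over all genes, to 1675 and 2036. EIF4E, which binds the messenger RNA cap, went from 3.41 ± 0.226 to 5.51 ± 0.861 FPKM (log2 change 0.55, limma adjusted p = 0.00965). EIF3K went from 46.8 ± 0.35 to 70.6 ± 7.37 FPKM. EIF3A, a long scaffold subunit of the same eIF3 complex as EIF3K, fell from 64 ± 2.31 to 44.5 ± 2.58 FPKM (log2 change -0.52, limma adjusted p = 0.00309), and stood at -0.38 after the length correction. EEF2, which moves the ribosome along, went from 571 ± 14.8 to 474 ± 63.5 FPKM and did not pass as measured (log2 change -0.28, limma adjusted p = 0.083), but did after the length correction (log2 change -0.35, limma adjusted p = 0.0444).

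The proteasome, which degrades ubiquitin-tagged proteins, showed the same direction in its core and its cap. Its counts stand beside 19.4% higher and 16.9% lower of all genes tested. Of 18 core subunits and assembly factors 17 were higher (median log2 change 0.60), and of 22 regulatory subunits 15 were higher (0.39); none was lower. PSMB7, a catalytic core subunit, measured 106, 106 and 106 FPKM in the controls and 179, 166 and 167 FPKM in the siANKRD35 libraries (log2 change 0.68, SE 0.0645, limma adjusted p = 0.00112). POMP, the core's assembly factor, measured 82.3, 83.3 and 84.1 FPKM in the controls and 144, 136 and 135 FPKM in the siANKRD35 libraries (log2 change 0.73, SE 0.063, limma adjusted p = 0.000855). PSMD13, a lid subunit, went from 32.4 ± 1.05 to 50.1 ± 0.605 FPKM. ADRM1, a ubiquitin receptor of the cap, measured 87, 80.7 and 87.9 against 124, 86.5 and 119 FPKM and did not pass (log2 change 0.34, limma adjusted p = 0.0924). After the length correction 15 and 11 were higher. With any 1 library left out the counts were 12 to 17 and 8 to 20, and after quantile normalization 12 and 6. The Sm and LSm proteins, which form rings around spliceosomal RNAs, had 16 of 20 higher and none lower (median 0.62, and 0.51 after the length correction, where 13 passed). Sm and LSm proteins numbered 13 higher and 0 lower after the length correction, 19 and 0 without siANKRD35 replicate 2, and 13 to 16 and 0 without 1 of the others. LSM2 measured 39.5, 40.1 and 38.7 FPKM in the controls and 71, 67.1 and 67.1 FPKM in the siANKRD35 libraries (log2 change 0.78, SE 0.0643, limma adjusted p = 0.000764). SNRNP70, at 28.4, 26.7 and 26.7 against 55.7, 22.3 and 45.5 FPKM, did not pass (log2 change 0.48, limma adjusted p = 0.248). Its replicate 2 lay below every control, while replicates 1 and 3 lay well above them.

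Heat shock chaperones, which fold proteins in the cytosol and mitochondria, rose in part, where 19.4% of all genes tested were higher and 16.9% lower. Of 22 heat shock chaperones 17 were higher (median 0.42), 15 after the length correction with 1 lower, and 4 higher with 2 lower after quantile normalization. Heat shock chaperones numbered 15 higher and 1 lower after the length correction, 18 and 3 without siANKRD35 replicate 2, and 8 to 16 and 0 without 1 of the others. HSPE1, the mitochondrial co-chaperonin, went from 30.2 ± 3.46 to 57.6 ± 5.62 FPKM (log2 change 0.91, limma adjusted p = 0.00206). TCP1, a subunit of the cytosolic chaperonin, went from 70.2 ± 2.55 to 109.8 ± 11.3 FPKM (log2 change 0.63, limma adjusted p = 0.00301). HSPA1B went from 9.46 ± 0.134 to 19.4 ± 2.6 FPKM, but shares nearly all of its sequence with HSPA1A. HSP90AB1, an abundant cytosolic chaperone, measured 1036, 1053 and 1039 against 1089, 1199 and 1112 FPKM and did not pass (log2 change 0.12, limma adjusted p = 0.205).

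Chaperones of the endoplasmic reticulum went the other way, where 16.9% of all genes tested were lower and 19.4% higher. Of 22 genes of protein folding in that compartment 11 were lower and 1 higher (median -0.33; 10 lower and 0 higher after the length correction, median -0.27). Endoplasmic reticulum chaperones numbered 0 higher and 10 lower after the length correction, 3 and 13 without siANKRD35 replicate 2, and 0 to 1 and 8 to 9 without 1 of the others. HERPUD1, a component of the pathway that removes misfolded proteins, measured 57.5, 58.4 and 56.2 FPKM in the controls and 26.8, 28.6 and 28 FPKM in the siANKRD35 libraries (log2 change -1.02, SE 0.0647, limma adjusted p = 0.000437). HSPA5, the main chaperone of the compartment, went from 887 ± 15.9 to 636 ± 62.5 FPKM (log2 change -0.48, limma adjusted p = 0.00617). HYOU1 went from 36.7 ± 1.67 to 18.8 ± 3.01 FPKM and DNAJB9 from 35.8 ± 1.21 to 20.3 ± 4.16 FPKM. CALR, a lectin chaperone, measured 448, 443 and 435 against 596, 469 and 531 FPKM and did not pass (log2 change 0.26, limma adjusted p = 0.0724). Targets of ATF4, the factor of amino acid and translation stress, had 10 of 29 lower and 1 higher. ATF4 targets numbered 1 higher and 9 lower after the length correction, 3 and 15 without siANKRD35 replicate 2, and 0 to 1 and 6 to 10 without 1 of the others. SLC7A5, a transporter of large amino acids, went from 171 ± 6.23 to 90.7 ± 15 FPKM (log2 change -0.92, limma adjusted p = 0.0027). WARS, the tryptophan transfer RNA synthetase, went from 44.6 ± 1.05 to 23.3 ± 0.593 FPKM (log2 change -0.91, limma adjusted p = 0.000541). The gene that rose was DDIT4, an inhibitor of mTORC1, at 69.9, 69.7 and 57.3 against 183, 94.8 and 162 FPKM (log2 change 1.1, limma adjusted p = 0.0124). ATF4 itself measured 182, 179.7 and 183 against 253, 188 and 232 FPKM and did not pass (log2 change 0.29, limma adjusted p = 0.0829).

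Glycolysis, the splitting of glucose to pyruvate, had 11 of 17 enzymes and transporters higher and none lower (median 0.43; 8 higher after the length correction, 7 to 14 with any 1 library left out). HK2, an inducible hexokinase, measured 8.39, 7.92 and 7.7 FPKM in the controls and 13.8, 14.4 and 12.6 FPKM in the siANKRD35 libraries (log2 change 0.70, SE 0.079, limma adjusted p = 0.00172). LDHA, which reduces pyruvate to lactate, measured 161, 163 and 167 FPKM in the controls and 236, 277 and 238 FPKM in the siANKRD35 libraries (log2 change 0.61, SE 0.0821, limma adjusted p = 0.00265). PKM, the pyruvate kinase gene, measured 371, 357 and 366 against 381, 305 and 365 FPKM and did not pass (log2 change -0.06, limma adjusted p = 0.638). Of 25 targets of hypoxia-inducible factors, 9 were higher and 1 lower, beside 19.4% and 16.9% of all genes tested. Beside CXCR4 and PLIN2 these were led by ADM, the vasodilator adrenomedullin (23.9 ± 2.02 to 47.9 ± 1.86 FPKM, log2 change 0.98, limma adjusted p = 0.000802), and ANGPTL4, an inhibitor of lipoprotein lipase (58 ± 1.07 to 111 ± 16.5 FPKM, log2 change 0.92, limma adjusted p = 0.00212). HIF targets numbered 10 higher and 1 lower after the length correction, 11 and 4 without siANKRD35 replicate 2, and 8 to 9 and 1 without 1 of the others. EPAS1, one of the factors itself, fell from 38.1 ± 1.46 to 19.1 ± 1.19 FPKM (log2 change -0.96, limma adjusted p = 0.000674). VEGFA measured 3.87, 4.03 and 4.1 against 4.79, 3.26 and 4.13 FPKM and did not pass (log2 change 0.01, limma adjusted p = 0.975). TXNIP has a close relative among the alpha-arrestins, ARRDC4, which was looked up after its value was seen: it fell, with 7.69, 8.9 and 8.11 FPKM in the controls and 2.33, 3.18 and 3.01 FPKM in the siANKRD35 libraries (log2 change -1.27, SE 0.11, limma adjusted p = 0.000855).

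Cell cycle genes that passed as measured were mostly higher. Of 40 genes of G2 phase and mitosis 18 were higher and 2 lower (median 0.35), beside 19.4% and 16.9% of all genes tested. CDK1, the kinase that starts mitosis, measured 19.1, 21.8 and 20.8 FPKM in the controls and 43, 63.5 and 47 FPKM in the siANKRD35 libraries (log2 change 1.26, SE 0.15, limma adjusted p = 0.00175). UBE2C, which supplies ubiquitin to the anaphase-promoting complex, measured 63.5, 61.4 and 61.9 FPKM in the controls and 134, 132 and 132 FPKM in the siANKRD35 libraries (log2 change 1.08, SE 0.0606, limma adjusted p = 0.000311). CDC20 (125, 124 and 119 against 175, 131 and 154 FPKM; log2 change 0.31, limma adjusted p = 0.0615) and TPX2 (83.5, 90.1 and 85.5 against 71.5, 90.8 and 73.6 FPKM; log2 change -0.14, limma adjusted p = 0.321) did not pass. MKI67, a proliferation marker with a long transcript, was lower, from 12 ± 0.365 to 9.0 ± 0.576 FPKM (log2 change -0.38, limma adjusted p = 0.0091), and did not pass after the length correction (adjusted p = 0.352). Of 42 S phase genes 18 were higher and 1 lower; the gene that fell was POLE, the catalytic subunit of the leading-strand polymerase (4.89 ± 0.0858 to 2.68 ± 0.242 FPKM, log2 change -0.68, limma adjusted p = 0.00182). FEN1, the flap endonuclease, went from 23.6 ± 1.14 to 36.5 ± 3.75 FPKM (log2 change 0.61, limma adjusted p = 0.00399). G2 and mitosis genes numbered 16 higher and 1 lower after the length correction, 23 and 6 without siANKRD35 replicate 2, and 12 to 22 and 1 without 1 of the others. S phase genes numbered 10 higher and 1 lower after the length correction, 22 and 3 without siANKRD35 replicate 2, and 5 to 16 and 1 without 1 of the others.

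Of 29 cell cycle inhibitors and p53 targets, 10 were lower and 2 higher (median -0.16), beside 16.9% and 19.4% of all genes tested. Inhibitors and p53 targets numbered 1 higher and 13 lower after the length correction, 6 and 12 without siANKRD35 replicate 2, and 1 and 8 to 11 without 1 of the others. CDKN2B, the inhibitor p15 of cyclin D kinases, measured 6.96, 7.1 and 6.45 FPKM in the controls and 2.23, 2.07 and 2.46 FPKM in the siANKRD35 libraries (log2 change -1.27, SE 0.0818, limma adjusted p = 0.00044). MDM2, the ubiquitin ligase for p53, went from 25.7 ± 0.815 to 13.3 ± 2.69 FPKM (log2 change -0.92, limma adjusted p = 0.00323). BTG2 went from 41.4 ± 1.03 to 22.7 ± 1.76 FPKM (log2 change -0.84, limma adjusted p = 0.00103). CDKN1A, the inhibitor p21, measured 317, 322 and 318 against 317, 265 and 290.4 FPKM and did not pass as measured (log2 change -0.14, limma adjusted p = 0.228). After the length correction it passed (log2 change -0.27, adjusted p = 0.0327). SFN, the largest of the increases chosen above, belongs to this list and rose.

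Interferon response genes were lower in the majority of those that passed, where 16.9% of all genes tested were lower and 19.4% higher. The type I interferon response acts through transcription factors that bind interferon-stimulated response elements in promoters. Of 38 tested members 17 were lower and 3 higher (median -0.24; -0.22 after the length correction). Interferon genes numbered 2 higher and 16 lower after the length correction, 7 and 22 without siANKRD35 replicate 2, and 1 to 4 and 11 to 15 without 1 of the others. RSAD2, the antiviral enzyme viperin, measured 4.74, 4.88 and 4.72 FPKM in the controls and 0.469, 0.678 and 0.496 FPKM in the siANKRD35 libraries (log2 change -1.9, SE 0.0864, limma adjusted p = 0.000141). IFIT3 measured 57.2, 55.5 and 54.5 FPKM in the controls and 21.6, 24.7 and 22.1 FPKM in the siANKRD35 libraries (log2 change -1.26, SE 0.0757, limma adjusted p = 0.000361). IFIT2 measured 53.9, 57.2 and 55.6 FPKM in the controls and 24.1, 26 and 22.4 FPKM in the siANKRD35 libraries (log2 change -1.17, SE 0.0774, limma adjusted p = 0.000503). Both belong to a family that binds viral RNA or its sensors. IFIT1 went from 12.7 ± 0.324 to 6.72 ± 0.798 FPKM (log2 change -0.84, limma adjusted p = 0.00168). ISG15, a ubiquitin-like modifier, went from 90.6 ± 3.94 to 67.3 ± 12.5 FPKM (log2 change -0.44, limma adjusted p = 0.0411). MX1 (2.46 ± 0.218 to 1.98 ± 0.306 FPKM; log2 change -0.22, limma adjusted p = 0.144) and LGALS3BP (147 ± 2.8 to 135 ± 13.7 FPKM; log2 change -0.13, limma adjusted p = 0.305) did not pass.

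A promoter of IFIT3 (RefSeq, GRCh38.p14, chr10:89327747-89327996, plus strand) is printed to show the element by which such genes are recognised. The capitals mark 2 matches to the interferon-stimulated response element GAAANNGAAA, read on the reverse strand, that begin 156 and 122 bases before its annotated start. The window of another annotated IFIT3 start (chr10:89332279-89332528) also holds 2 matches, which begin 94 and 51 bases before that start.
IFIT3 promoter: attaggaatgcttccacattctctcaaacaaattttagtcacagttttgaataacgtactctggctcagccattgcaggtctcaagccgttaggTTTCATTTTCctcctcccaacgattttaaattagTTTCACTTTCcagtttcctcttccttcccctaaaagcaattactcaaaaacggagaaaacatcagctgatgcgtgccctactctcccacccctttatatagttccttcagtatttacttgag
Either strand of the 250 bases before the start was searched. The element was in 3.02% of the 35116 promoters of the RefSeq table, in 16 of the 28 tested interferon response members with an entry and in 7 of the 10 with an entry that were called lower. The list is made of known interferon targets, so this share describes the list.

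Immediate early genes and targets of serum response factor were lower or did not pass, where 16.9% of all genes tested were lower and 19.4% higher. Of 29 members 12 were lower and 0 higher (median -0.17; -0.31 after the length correction). Immediate early genes numbered 2 higher and 12 lower after the length correction, 4 and 12 without siANKRD35 replicate 2, and 0 to 1 and 9 to 12 without 1 of the others. Beside EGR1 and ATF3, FOS, a subunit of the factor AP-1, measured 5.29, 4.36 and 4.2 FPKM in the controls and 1.4, 1.36 and 1.5 FPKM in the siANKRD35 libraries (log2 change -1.21, SE 0.10, limma adjusted p = 0.00071). KLF4 measured 11.9, 10.5 and 10.9 FPKM in the controls and 5.88, 5.02 and 6.34 FPKM in the siANKRD35 libraries (log2 change -0.85, SE 0.10, limma adjusted p = 0.00173). JUN, the partner of FOS, went from 262 ± 10.8 to 180.2 ± 33.9 FPKM (log2 change -0.56, limma adjusted p = 0.0212). MYC measured 123, 119.9 and 115 against 121, 103 and 123 FPKM and did not pass (log2 change -0.04, limma adjusted p = 0.722), nor did the actin genes ACTB (log2 change 0.10, limma adjusted p = 0.334) and ACTG1 (log2 change 0.16, limma adjusted p = 0.154). Serum response factor binds CArG boxes, and the promoter of EGR1 (RefSeq, GRCh38.p14, chr5:138465229-138465478, plus strand) is printed because it holds 2 of them, marked in capitals, that begin 105 and 83 bases before the start.
EGR1 promoter: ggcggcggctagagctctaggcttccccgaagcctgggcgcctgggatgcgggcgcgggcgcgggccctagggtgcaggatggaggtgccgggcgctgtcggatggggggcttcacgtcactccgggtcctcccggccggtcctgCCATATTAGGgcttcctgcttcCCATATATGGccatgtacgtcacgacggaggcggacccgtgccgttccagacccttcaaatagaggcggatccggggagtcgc
A CArG box on either strand was in 1.16% of the 35116 promoters, in 6 of 22 tested members of the list with an entry and in 2 of the 10 that were called lower. These matches are letters in a window and not measured binding.

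Targets of NF-kB, the factor that linear ubiquitin chains help to switch on, went both ways: 10 of 32 were higher and 12 lower. For these and the lists below, the shares over all genes tested were 19.4% higher and 16.9% lower. NF-kB targets numbered 6 higher and 12 lower after the length correction, 10 and 14 without siANKRD35 replicate 2, and 5 to 10 and 9 to 12 without 1 of the others. VCAM1, an adhesion molecule, went from 2.39 ± 0.195 to 0.457 ± 0.0826 FPKM (log2 change -1.22, limma adjusted p = 0.000621). TNFAIP2 measured 158, 149 and 160.2 FPKM in the controls and 77.2, 60.7 and 70.2 FPKM in the siANKRD35 libraries (log2 change -1.16, SE 0.10, limma adjusted p = 0.000833). NFKBIA, the inhibitor that holds NF-kB in the cytoplasm, rose, at 88.2, 88.5 and 83.6 FPKM in the controls and 203, 138 and 203 FPKM in the siANKRD35 libraries (log2 change 1.03, SE 0.15, limma adjusted p = 0.00352). The cytokine gene CSF2 rose too (201 ± 5.97 to 365 ± 35.2 FPKM; log2 change 0.85, limma adjusted p = 0.00134). IL6 measured 619, 617 and 572 against 588, 582 and 604 FPKM and did not pass (log2 change -0.03, limma adjusted p = 0.781). CXCL8, a neutrophil chemokine, measured 1325, 1379 and 1391 against 1632, 2347 and 1788 FPKM and passed as measured (log2 change 0.48, limma adjusted p = 0.0308) but not after the length correction (adjusted p = 0.183). Of the 14 genes of linear ubiquitin, 5 were lower and 1 higher: CYLD, which removes such chains, went from 7.0 ± 0.277 to 3.91 ± 0.575 FPKM (log2 change -0.71, limma adjusted p = 0.00304). Linear ubiquitin genes numbered 2 higher and 4 lower after the length correction, 3 and 5 without siANKRD35 replicate 2, and 1 and 2 to 4 without 1 of the others. TNFAIP3, the inhibitor A20, went from 31.6 ± 0.585 to 21.7 ± 0.916 FPKM (log2 change -0.52, limma adjusted p = 0.00227). UBE2L3, the conjugating enzyme used by the RBCK1 complex, rose from 32.5 ± 0.229 to 47.5 ± 2.79 FPKM (log2 change 0.53, limma adjusted p = 0.00255). Of 21 feedback genes of MAP kinase signalling 7 were higher and 3 lower, with the phosphatases DUSP5 (96.9 ± 1.67 to 198 ± 6.46 FPKM) and DUSP8 (6.09 ± 0.477 to 2.37 ± 0.283 FPKM) changed in opposite directions. MAP kinase feedback genes numbered 5 higher and 2 lower after the length correction, 8 and 5 without siANKRD35 replicate 2, and 4 to 6 and 2 without 1 of the others.

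Targets of YAP and TAZ, the coactivators restrained by the Hippo pathway, were lower in 17 of 28 and higher in 3. All genes tested had 16.9% lower and 19.4% higher. The median of the list was -0.41, and -0.37 after the length correction. YAP and TAZ targets numbered 3 higher and 14 lower after the length correction, 4 and 18 without siANKRD35 replicate 2, and 1 to 3 and 14 to 17 without 1 of the others. ANKRD1 measured 45.9, 47.4 and 47.8 FPKM in the controls and 25.5, 25 and 26.6 FPKM in the siANKRD35 libraries (log2 change -0.85, SE 0.0648, limma adjusted p = 0.000621). TGFB2, a TGF-beta ligand, measured 13.7, 14.5 and 13.7 FPKM in the controls and 4.67, 7.28 and 5.68 FPKM in the siANKRD35 libraries (log2 change -1.14, SE 0.14, limma adjusted p = 0.00189). THBS1, thrombospondin 1, measured 114, 112 and 105 FPKM in the controls and 60.9, 69.9 and 64.9 FPKM in the siANKRD35 libraries (log2 change -0.75, SE 0.0781, limma adjusted p = 0.00137). The classical targets CYR61 and CTGF went from 508 ± 13.7 to 362 ± 36.4 FPKM (log2 change -0.49, limma adjusted p = 0.00669) and from 95.9 ± 1.29 to 68 ± 7.52 FPKM (log2 change -0.49, limma adjusted p = 0.00683). AMOTL2 (60.3, 59.6 and 61.2 against 55.7, 51 and 57.6 FPKM; log2 change -0.14, limma adjusted p = 0.166) did not pass. TGF-beta response genes were lower in 11 of 25 and higher in 1. TGF-beta response genes numbered 0 higher and 10 lower after the length correction, 2 and 16 without siANKRD35 replicate 2, and 0 to 1 and 10 without 1 of the others. KLF10, an early TGF-beta-induced factor, measured 72.6, 72.6 and 71.4 FPKM in the controls and 32.4, 43.1 and 34 FPKM in the siANKRD35 libraries (log2 change -0.98, SE 0.11, limma adjusted p = 0.00173).

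Collagen and basement membrane genes were mostly lower, where 16.9% of all genes tested were lower and 19.4% higher. Of the 12 tested collagens 7 were lower and 1 higher (median -0.73, and -0.48 after the length correction). Collagens numbered 1 higher and 7 lower after the length correction, 1 and 7 without siANKRD35 replicate 2, and 1 and 7 to 8 without 1 of the others. COL4A1, a chain of the basement membrane network, measured 31.3, 31.2 and 33.2 FPKM in the controls and 13.1, 12.7 and 12 FPKM in the siANKRD35 libraries (log2 change -1.28, SE 0.0697, limma adjusted p = 0.000311). Its partner COL4A2 measured 30.4, 28.1 and 28.6 FPKM in the controls and 15.4, 10.0 and 13.7 FPKM in the siANKRD35 libraries (log2 change -1.12, SE 0.15, limma adjusted p = 0.00237). The groups were well apart for both. COL6A2 measured 15.9, 14.6 and 14.5 against 14.1, 10.2 and 14.6 FPKM and did not pass (log2 change -0.21, limma adjusted p = 0.259). Of 14 other basement membrane genes 11 were lower and 1 higher (median -0.64; -0.40 after the length correction; 7 lower when the longest transcript set the length). Basement membrane genes numbered 1 higher and 10 lower after the length correction, 1 and 12 without siANKRD35 replicate 2, and 1 and 10 to 11 without 1 of the others. AGRN, agrin, measured 38.1, 37.9 and 37.2 FPKM in the controls and 17.7, 11.8 and 16.6 FPKM in the siANKRD35 libraries (log2 change -1.26, SE 0.14, limma adjusted p = 0.0017). LAMB3, a laminin chain, measured 7.68, 7.99 and 7.77 FPKM in the controls and 3.16, 2.67 and 3.54 FPKM in the siANKRD35 libraries (log2 change -1.1, SE 0.095, limma adjusted p = 0.000855). LAMB1 (38.5, 38.3 and 37.8 against 34.5, 37.3 and 36.3 FPKM; log2 change -0.08, limma adjusted p = 0.351) did not pass. Of 22 further matrix proteins and enzymes 12 were lower and 6 higher, with TNC, tenascin C, lower (log2 change -0.94, limma adjusted p = 0.00158) and MMP1 the largest rise. These further matrix genes numbered 7 higher and 9 lower after the length correction, 7 and 12 without siANKRD35 replicate 2, and 5 to 6 and 8 to 10 without 1 of the others. Of 12 integrin genes 7 were lower and 1 higher; ITGB6 went from 3.29 ± 0.183 to 1.33 ± 0.282 FPKM (log2 change -0.89, limma adjusted p = 0.00192) and ITGB1 did not pass (239.8, 249.7 and 240.2 against 238, 299 and 266 FPKM; log2 change 0.13, limma adjusted p = 0.309). Integrin genes numbered 1 higher and 3 lower after the length correction, 1 and 7 without siANKRD35 replicate 2, and 0 to 1 and 4 to 5 without 1 of the others.

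Sterol and fatty acid synthesis fell in part. Of 27 genes of cholesterol synthesis and uptake 11 were lower and 2 higher (median -0.24). Cholesterol genes numbered 1 higher and 11 lower after the length correction, 4 and 15 without siANKRD35 replicate 2, and 1 to 3 and 8 to 10 without 1 of the others. HMGCS1 measured 14.8, 14.5 and 15.2 FPKM in the controls and 4.81, 6.11 and 4.92 FPKM in the siANKRD35 libraries (log2 change -1.34, SE 0.10, limma adjusted p = 0.000541). INSIG1, which retains the sterol sensor in the endoplasmic reticulum, measured 44.2, 46.1 and 48.4 FPKM in the controls and 17.6, 24.2 and 19.5 FPKM in the siANKRD35 libraries (log2 change -1.15, SE 0.12, limma adjusted p = 0.00133). The regulators SREBF1 and SREBF2 went from 12.1 ± 0.40 to 6.08 ± 0.972 FPKM (log2 change -0.90, limma adjusted p = 0.00185) and from 17.2 ± 0.588 to 9.8 ± 0.318 FPKM (log2 change -0.75, limma adjusted p = 0.000966). FDPS (34.4, 29.3 and 31.9 against 32.6, 24.9 and 30.0 FPKM; log2 change -0.13, limma adjusted p = 0.407) did not pass. Of 19 genes of fatty acid synthesis 7 were lower and 1 higher, among them SCD, FASN and the desaturase FADS1 (8.57 ± 0.41 to 5.14 ± 0.186 FPKM; log2 change -0.64, limma adjusted p = 0.00172); ELOVL5 (log2 change 0.20, limma adjusted p = 0.0698) did not pass. Fatty acid synthesis genes numbered 2 higher and 5 lower after the length correction, 5 and 10 without siANKRD35 replicate 2, and 1 and 5 to 7 without 1 of the others. Of 27 targets of NRF2, the factor of the oxidative stress response, 6 were higher and 6 lower: HMOX1 and PRDX1 (399.5 ± 17.1 to 694 ± 61.5 FPKM; log2 change 0.79, limma adjusted p = 0.00145) rose, the efflux pump ABCC1 (11.6 ± 0.339 to 6.57 ± 0.391 FPKM; log2 change -0.74, limma adjusted p = 0.00127) fell, and NQO1 (205, 209 and 210.2 against 216, 215 and 210.0 FPKM; log2 change 0.04, limma adjusted p = 0.651) did not pass. NRF2 targets numbered 5 higher and 5 lower after the length correction, 12 and 7 without siANKRD35 replicate 2, and 3 to 6 and 4 to 5 without 1 of the others. Over all genes tested 19.4% were higher and 16.9% lower as measured, and 29.6% and 25.4% without siANKRD35 replicate 2.

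Chromatin regulators shifted by more than any other list of 5 or more tested members with the length correction. These genes had a median length of 15252 bases, against 4567 for all genes tested. Of all genes tested, 16.9% were lower as measured and 12.4% after the correction. As measured, 23 of 33 remodellers and histone-modifying enzymes were lower and 0 higher, with a median of -0.46; after the correction 11 were lower, with a median of -0.18. Chromatin regulators numbered 0 higher and 11 lower after the length correction, 0 and 29 without siANKRD35 replicate 2, and 0 and 15 to 22 without 1 of the others. CREBBP, a histone acetyltransferase, measured 6.38, 5.58 and 5.99 FPKM in the controls and 2.2, 1.75 and 2.26 FPKM in the siANKRD35 libraries (log2 change -1.19, SE 0.10, limma adjusted p = 0.000764). Its relative EP300 measured 4.29, 4.19 and 4.6 FPKM in the controls and 2.06, 2.06 and 1.95 FPKM in the siANKRD35 libraries (log2 change -0.83, SE 0.075, limma adjusted p = 0.000966). Both also passed after the correction, at -0.88 and -0.55. KMT2D, a methyltransferase of enhancers, went from 1.84 ± 0.203 to 0.977 ± 0.208 FPKM and passed as measured (log2 change -0.53, limma adjusted p = 0.0117) but not after it (adjusted p = 0.264). EZH2 (15.4, 16.5 and 16.2 against 13.1, 16.7 and 13.7 FPKM; log2 change -0.14, limma adjusted p = 0.305) did not pass in either form. Receptor tyrosine kinases, also long, had 7 of 18 lower as measured and 2 after the correction. Receptor tyrosine kinases numbered 0 higher and 2 lower after the length correction, 0 and 8 without siANKRD35 replicate 2, and 0 and 4 to 7 without 1 of the others. EGFR was among the 2, at 35.6, 34 and 34.6 FPKM in the controls and 15.5, 16.8 and 16.4 FPKM in the siANKRD35 libraries (log2 change -1.05, SE 0.0679, limma adjusted p = 0.00044; corrected change -0.77). MET, the receptor for hepatocyte growth factor, measured 72.8, 76.7 and 75.7 against 48.4, 74.2 and 55.6 FPKM and did not pass (log2 change -0.35, limma adjusted p = 0.102).

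**Figure D5:**
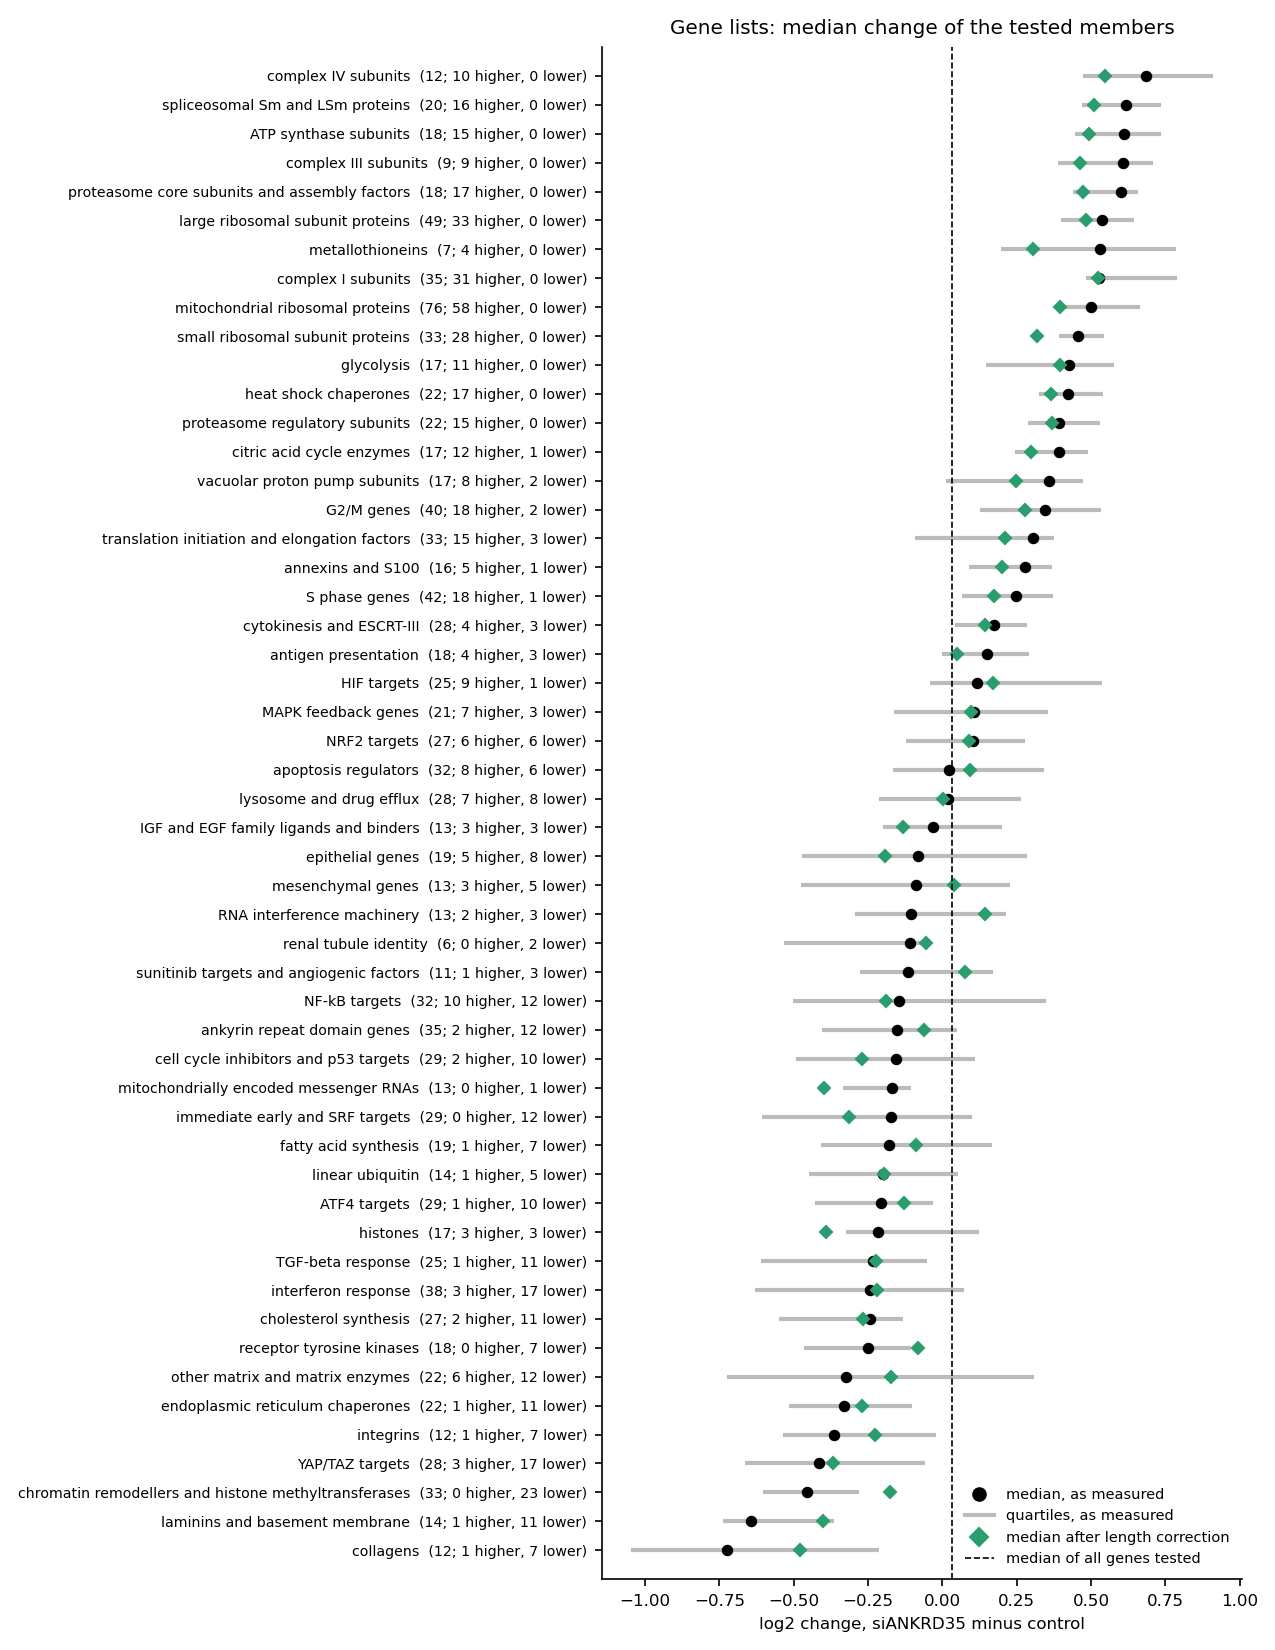
Median log2 change of the tested members of 52 gene lists with at least 5 members tested, as measured (circles, with quartiles as bars) and after the length correction (diamonds); the dashed line is the median of all genes tested, 0.03, and the brackets give members tested, higher and lower. Complex IV, the Sm and LSm proteins and ATP synthase stand at the top and collagens, the basement membrane and chromatin regulators at the bottom.

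The other lists held fewer or mixed changes, to be read beside the 19.4% higher and 16.9% lower of all genes tested. These shares were 16.7% and 12.4% after the length correction, and 29.6% and 25.4% without siANKRD35 replicate 2. Quantile normalization turned the balance of all genes too, with 1675 higher and 2036 lower. Of 32 regulators of apoptosis 8 were higher and 6 lower. Apoptosis regulators numbered 7 higher and 3 lower after the length correction, 10 and 10 without siANKRD35 replicate 2, and 3 to 7 and 2 to 3 without 1 of the others; quantile normalization turned the balance, to 4 and 6. TNFRSF10D, a decoy receptor for the death ligand TRAIL, measured 40.6, 42 and 40.9 FPKM in the controls and 17.4, 16.1 and 16.6 FPKM in the siANKRD35 libraries (log2 change -1.25, SE 0.066, limma adjusted p = 0.00029). BAD, which promotes cell death, rose from 4.64 ± 0.328 to 11.9 ± 4.59 FPKM (log2 change 1.13, limma adjusted p = 0.0125). Of 28 genes of lysosomes and drug efflux 7 were higher and 8 lower, with the cathepsins CTSB (65.5 ± 1.65 to 105 ± 2.56 FPKM) and CTSL (41.6 ± 1.58 to 67 ± 9.13 FPKM) rising and the pump ABCB1 falling (1.87 ± 0.165 to 0.889 ± 0.0937 FPKM). Lysosome and efflux genes numbered 8 higher and 7 lower after the length correction, 11 and 10 without siANKRD35 replicate 2, and 3 to 8 and 5 to 8 without 1 of the others. The vacuolar proton pump had 8 of 17 subunits higher and 2 lower. Proton pump subunits numbered 7 higher and 0 lower after the length correction, 10 and 2 without siANKRD35 replicate 2, and 2 to 7 and 1 to 2 without 1 of the others. Among targets of sunitinib and angiogenic factors 1 of 11 was higher, CXCL8, and 3 lower, FGF2, PDGFA and PDGFC, with FGF2 not passing after the length correction (limma adjusted p = 0.0545). Sunitinib targets and angiogenic factors numbered 0 higher and 2 lower after the length correction, 2 and 4 without siANKRD35 replicate 2, and 0 to 1 and 0 to 3 without 1 of the others. None of them passed without siANKRD35 replicate 3 or without any 1 of the control libraries. Of the 16 annexin and S100 genes 5 were higher and 1 lower; ANXA2 measured 167, 167 and 168 FPKM in the controls and 239, 235 and 241 FPKM in the siANKRD35 libraries (log2 change 0.51, SE 0.0596, limma adjusted p = 0.00181). Annexin and S100 genes numbered 3 higher and 1 lower after the length correction, 10 and 1 without siANKRD35 replicate 2, and 2 to 5 and 0 without 1 of the others; quantile normalization turned the balance, to 2 and 3. Of 28 genes of cytokinesis and ESCRT-III, the machinery MITD1 binds, 4 were higher and 3 lower; MYH9, non-muscle myosin, fell from 148 ± 4.86 to 62.6 ± 10.5 FPKM (log2 change -1.24, limma adjusted p = 0.0013). Cytokinesis genes numbered 5 higher and 2 lower after the length correction, 14 and 4 without siANKRD35 replicate 2, and 1 to 6 and 2 to 3 without 1 of the others; quantile normalization turned the balance, to 1 and 3. Of 35 ankyrin repeat genes, ANKRD35 included, 12 were lower and 2 higher; ANKRD39 rose from 2.39 ± 0.112 to 5.34 ± 0.406 FPKM (log2 change 0.90, limma adjusted p = 0.000966). Ankyrin repeat genes numbered 2 higher and 7 lower after the length correction, 5 and 15 without siANKRD35 replicate 2, and 2 and 7 to 11 without 1 of the others. Of the 7 metallothioneins 4 were higher, MT1X going from 7.3 ± 0.575 to 14.9 ± 0.894 FPKM (log2 change 0.94, limma adjusted p = 0.000933). Metallothioneins numbered 3 higher and 1 lower after the length correction, 4 and 1 without siANKRD35 replicate 2, and 3 to 4 and 0 without 1 of the others. The genes are near copies that can share reads.

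Of 19 epithelial genes 5 were higher and 8 lower, and of 13 mesenchymal genes 3 were higher and 5 lower. Epithelial genes numbered 5 higher and 6 lower after the length correction, 6 and 9 without siANKRD35 replicate 2, and 4 to 5 and 2 to 6 without 1 of the others. Mesenchymal genes numbered 2 higher and 4 lower after the length correction, 4 and 6 without siANKRD35 replicate 2, and 1 to 3 and 3 to 4 without 1 of the others. KRT18, a simple epithelial keratin, measured 354, 331 and 341 FPKM in the controls and 657, 509 and 645 FPKM in the siANKRD35 libraries (log2 change 0.81, SE 0.11, limma adjusted p = 0.00262), and its partner KRT8 went from 386 ± 12.7 to 566 ± 99.5 FPKM (log2 change 0.53, limma adjusted p = 0.0198). KRT80 fell from 76.2 ± 3.63 to 39 ± 4.97 FPKM (log2 change -0.95, limma adjusted p = 0.00163), as did the cadherin CDH2, from 40.2 ± 1.24 to 24.4 ± 2.3 FPKM (log2 change -0.70, limma adjusted p = 0.00192). EPCAM (19.5, 21.5 and 19.2 against 19.9, 20.6 and 20.5 FPKM; log2 change 0.02, limma adjusted p = 0.853) and VIM, vimentin (202, 206 and 213 against 194, 239 and 202 FPKM; log2 change 0.03, limma adjusted p = 0.844), did not pass. Of the 6 tested genes of renal tubule identity 2 were lower, PAX2 (5.49, 4.38 and 4.14 against 2.81, 1.89 and 2.5 FPKM; log2 change -0.74, limma adjusted p = 0.0073) and LHX1 (1.31, 1.6 and 1.36 against 0.512, 0.488 and 0.571 FPKM; log2 change -0.67, limma adjusted p = 0.00271), both factors of kidney development; PAX8 did not pass (48.3, 46.1 and 43.3 against 48.1, 33 and 46.3 FPKM; log2 change -0.13, limma adjusted p = 0.523). Histone genes (3 of 17 higher, 3 lower), the growth factor ligands of the IGF and EGF families (3 of 13 higher, 3 lower), antigen presentation (4 of 18 higher, 3 lower) and the RNA interference machinery (2 of 13 higher, 3 lower) held changes in both directions. Over all genes tested 19.4% were higher and 16.9% lower, so such counts alone do not set these lists apart. Without siANKRD35 replicate 2 these shares were 29.6% and 25.4%, and quantile normalization gave 1675 genes higher and 2036 lower. Histone genes numbered 3 higher and 5 lower after the length correction, 5 and 3 without siANKRD35 replicate 2, and 3 and 2 to 5 without 1 of the others. IGF and EGF family ligands numbered 4 higher and 3 lower after the length correction, 4 and 4 without siANKRD35 replicate 2, and 2 to 4 and 0 to 1 without 1 of the others. Antigen presentation genes numbered 4 higher and 3 lower after the length correction, 10 and 3 without siANKRD35 replicate 2, and 2 to 3 and 2 to 3 without 1 of the others; quantile normalization turned the balance, to 2 and 4. RNA interference genes numbered 1 higher and 1 lower after the length correction, 4 and 4 without siANKRD35 replicate 2, and 0 to 2 and 2 to 3 without 1 of the others. Among the ligands, EPGN, epigen, rose from 9.44 ± 0.513 to 24.7 ± 7.12 FPKM (log2 change 1.27, limma adjusted p = 0.003). AGO2, the slicing enzyme of RNA interference, went from 3.39 ± 0.228 to 2.27 ± 0.161 FPKM as measured (log2 change -0.42, limma adjusted p = 0.00903) and did not pass after the length correction (adjusted p = 0.272).

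Set beside the other knockdowns, each with its own control and table, the genes that changed most here behaved in several ways. TXNIP was lower in each of the 3 comparisons, with log2 changes of -1.77 here, -0.72 after RBCK1 knockdown and -1.54 after MITD1 knockdown (limma adjusted p = 0.000105, 1.70e-05 and 2.34e-07). ARRDC4 was lower in each too (-1.27, -0.27 and -1.01), as were EGR1 (-2.38, -1.17 and -0.59) and OASL (-1.83, -4.34 and -1.39). HMOX1 rose here and fell in the others (2.0, -1.96 and -0.14), and SCD fell here but rose after RBCK1 knockdown (-1.75, 1.0 and -0.26). KNSTRN changed by 1.85 here, 0.27 after RBCK1 knockdown and 0.06 after MITD1 knockdown, the last without passing (adjusted p = 0.211). SFN, MMP1, CXCR4, IL13RA2, SCEL, HOXB13 and RBP7 were under the FPKM minimum for a test in the other tables. The differences between comparisons were not tested, and levels before knockdown already differed: FN1 measured 67.5 FPKM in the controls here against 447 and 646 in the other controls, and SCD 26 against 65.3 and 459, in tables normalized separately.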

How the data were processed

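The deposited tables give FPKM per gene, computed by the authors, with whole reads recoverable per the file headers' gene lengths (tolerance 0.01). The aligner and counter are not given in the sources used here. All 58735 identifiers, coordinates and lengths of the ANKRD35 table match GENCODE 29 (GRCh38), although the submitters' processing notes name the mouse build mm10. A further 6 value columns of that file name no sample of the series and were not used.

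Genes at 1 FPKM or more in at least 3 of 6 libraries were tested as log2(FPKM + 1) with limma 3.58.1 (trend) in R 4.3.3, with Benjamini-Hochberg adjustment and a threshold of 0.05. Fold changes on this scale understate the change of low genes. The length correction subtracts, per library, a natural spline of the deviation from the gene mean on log2 gene length. The test was checked on simulated data with the same spread in both groups and no outlying library. That check does not cover the wider spread of the siANKRD35 libraries. Same-numbered libraries were not taken as pairs: their deviations correlated at 0.179, 0.114 and -0.0874.

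Named genes were the axis genes, the 15 largest increases and 15 largest decreases called both ways without overlap and averaging 5 FPKM or more in a group, and of each list the 4 largest called members and up to 2 abundant members that did not pass, plus defining genes; neighbours of ANKRD35, genes absent from or present only in these libraries, host genes of short RNAs, ARRDC4, KRT8 and KMT2D were added after their values were seen. The members and lists were chosen with earlier results of these data known. Other filters, pseudocounts, scalings, voom on reads and left-out libraries were tried as alternatives. Some named members of the lists are not reported here.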

Additional observations from a re-analysis of the deposited data

How the results depend on the processing

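The number of genes higher after knockdown, 2305, was 1530 without a filter on low values and 1167 to 3516 with 1 library left out. The number lower, 2007, was 1164 with a filter at 5 FPKM and 1100 to 3020 with 1 library left out. The highest counts came without siANKRD35 replicate 2 and the lowest without control replicate 2. The replicate numbers do not pair the libraries; with the replicate block 2284 were higher and 1855 lower, and with the block and length correction 1753 and 1319. Quantile normalization gave 1675 higher and 2036 lower, and limma-voom on reads 1747 and 2724. The remaining settings stayed within 1.5 times of both counts. The difference of the length trend between groups was -0.615 to -0.803 with 1 library left out, against -0.684, and no setting changed its sign. Of 314 genes named by the rule, 185 kept the same call in all 18 settings, and none reversed. The cause of these shifts was not tested. Low and short genes rest on few reads, so their changes are the least precise. The standard errors cover the spread between libraries, and whether that spread includes separate cultures is not stated.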
